A study of Mus musculus with 3 samples.

Results

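The alpha-arrestin genes Txnip, Arrdc1, Arrdc2, Arrdc3 and Arrdc4 were followed across 3 poly(A)+ RNA libraries of the mouse CAD line, neuroblastoma cells that make catecholamines. They were picked by symbol from the aliases of the deposited gene table, in which these 5 genes were 5 of 27389 gene clusters, with 1 cluster for each symbol. The family was selected knowing that Txnip fell in both knockdowns, so its differences from the control below are descriptions and were not tested. The cells had received siRNAs against Ptbp1, siRNAs against Ptbp1 and Ptbp2 together, or control siRNAs (ON-TARGETplus reagents, by lipofection), and were taken 72 h later. All groups share the same parental line, and each group is 1 library, so no difference has a replicate check. The product of Ptbp1 binds polypyrimidine tracts in RNA and represses many exons, and Ptbp2 is its neuronal paralogue.

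Alpha-arrestins are cytoplasmic adaptors with an arrestin fold. Most carry PPxY motifs that recruit ubiquitin ligases of the NEDD4 family to membrane proteins, which are then taken up from the cell surface. Txnip, the thioredoxin-interacting protein, also binds thioredoxin, and it promotes the endocytosis of the glucose transporters GLUT1 and GLUT4. Glucose induces Txnip and Arrdc4 in many cell types through MondoA or ChREBP, each paired with Mlx, which bind repeated E-box-like boxes in their promoters. Arrdc1 is known for driving the budding of small vesicles from the plasma membrane with the ESCRT protein Tsg101, and Arrdc3 for acting on integrin beta4 in human cells.

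The promoters of Txnip, Arrdc4 and Arrdc2 are shown because the first is of the gene with the largest difference, the second of the other glucose-induced member, and the third of the member that came next to Txnip after both siRNAs. Each is the 250 bases before the transcription start in the RefSeq promoter table (GRCm38.p6), printed 5′ to 3′ on the gene's strand, and each matched the mm9 genome exactly and once. The Txnip promoter lies at chr3:96361630-96361879 on the plus strand, the Arrdc4 promoter at chr7:75894125-75894374 on the minus strand and the Arrdc2 promoter at chr8:73363620-73363869 on the minus strand, all in mm9. Capitals mark matches, on either strand, to the E-box CACGTG, its variant CACGAG, the NF-Y box CCAAT, the forkhead-type motif GTAAACA, the TATA box TATATAA, and a paired motif that is CACGNG, then 5 bases of any letter, then CACGNG again.
Txnip: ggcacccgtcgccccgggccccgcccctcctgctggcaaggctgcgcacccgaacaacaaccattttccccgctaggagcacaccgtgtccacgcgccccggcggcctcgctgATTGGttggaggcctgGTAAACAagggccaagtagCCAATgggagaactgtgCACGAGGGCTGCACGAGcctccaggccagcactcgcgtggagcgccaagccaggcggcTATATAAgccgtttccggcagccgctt
Arrdc4: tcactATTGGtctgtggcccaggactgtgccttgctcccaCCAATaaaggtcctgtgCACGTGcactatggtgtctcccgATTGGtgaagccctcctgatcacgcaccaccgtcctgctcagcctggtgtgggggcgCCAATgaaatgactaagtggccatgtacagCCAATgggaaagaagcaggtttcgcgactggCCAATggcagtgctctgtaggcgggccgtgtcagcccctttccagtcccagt
Arrdc2: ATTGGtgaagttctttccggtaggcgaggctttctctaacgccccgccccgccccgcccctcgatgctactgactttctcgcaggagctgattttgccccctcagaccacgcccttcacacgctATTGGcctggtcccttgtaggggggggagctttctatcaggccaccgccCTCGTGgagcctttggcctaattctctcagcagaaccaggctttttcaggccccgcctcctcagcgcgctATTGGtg
The paired motif, an arrangement of a carbohydrate response element, was found at bases 85 to 69 before the Txnip start, where it overlaps 2 CACGAG boxes. It was present in 15 of 32536 distinct RefSeq promoters of the same length, or 0.0461%, and among the 5 genes in Txnip alone. Only this exact pattern was searched, and only in 250 bases, so other forms of the element or sites farther off would be missed. Arrdc4 held 1 CACGTG box, at bases 193 to 188, which 6.04% of promoters hold, and 6 CCAAT boxes, which 33.8% of promoters hold at least once. CCAAT occurred 2 times in Txnip, 3 times in Arrdc2, 1 time in the first of 3 Arrdc3 promoters and 0 times in Arrdc1. CACGAG, held by 5.39% of promoters, occurred 2 times in Arrdc1 and 1 time in Arrdc2. GTAAACA, which 3.17% of promoters hold, and TATATAA, held by 3.02%, were found in the Txnip promoter alone among the 5 genes, at bases 121 to 115 and 27 to 21 before its start. A match is a run of letters and not a site shown to be bound.

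**Figure D1:**
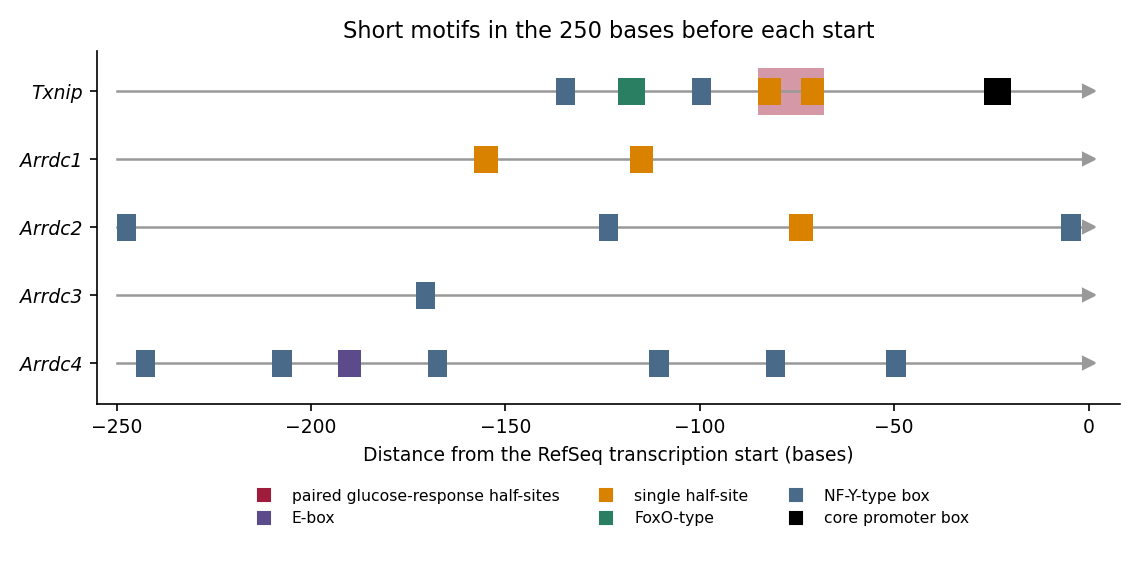
Positions of the motif matches in the 250 bases before the RefSeq transcription start of each alpha-arrestin gene (x axis, bases; for Arrdc3 the first of its 3 promoters). The paired motif stands at bases 85 to 69 of Txnip, the CACGTG E-box at bases 193 to 188 of Arrdc4, and the 6 CCAAT boxes of Arrdc4 are spread over its window.

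The libraries held 16899549 reads over clusters after Ptbp1 siRNA, 14242495 after Ptbp1 and Ptbp2 siRNAs and 16011466 after control siRNA. Ptbp1 had 1486 reads after Ptbp1 siRNA, 1516 after both siRNAs and 7191 after control siRNA, which is 5.38-fold lower than control after Ptbp1 siRNA and 4.44-fold lower after both siRNAs. Ptbp2 had 3044 reads after Ptbp1 siRNA, 633 after both siRNAs and 784 after control siRNA. After both siRNAs Ptbp2 was 4.05-fold lower than after Ptbp1 siRNA, but only 1.16-fold lower than control (1.04 to 1.29), so that library held Ptbp2 RNA near the control level. Of 10 markers of the CAD line none was at 0 reads. Their summed level was 3591 CPM (reads scaled to library size) after Ptbp1 siRNA, 4298 after both siRNAs and 4037 after control siRNA. Chgb, at 1119 CPM after Ptbp1 siRNA, 1446 after both siRNAs and 1639 after control siRNA, held the largest part of it. Tubb3 was next, at 971.5, 990.3 and 1043 CPM in the same order. After Ptbp1 siRNA 6 of the 10 were lower than control and 4 higher, and after both siRNAs 4 were lower and 6 higher. Of 16 markers of fibroblasts, immune cells, glia and endothelium, 11 were under 1 CPM after Ptbp1 siRNA, 12 after both siRNAs and 12 after control siRNA. Their summed level was 29.7 CPM after Ptbp1 siRNA, 22.3 after both siRNAs and 35.3 after control siRNA. Listed at 0 reads were 4 of them after Ptbp1 siRNA, 3 after both siRNAs and 6 after control siRNA, and the immune marker Ptprc had 0 reads after Ptbp1 siRNA, 1 after both siRNAs and 0 after control siRNA. The collagen gene Col1a2 was listed at 0 in every library while Col1a1 had reads, so a listed 0 is not taken as absence of a cell type. Pecam1, an endothelial adhesion gene, made up most of that sum, with 259 reads after Ptbp1 siRNA, 161 after both siRNAs and 335 after control siRNA. The part of these markers in the results was not tested.

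Txnip had the highest RPKM of the family in every library and fell in both knockdowns. Per exonic length its level was 15.0 RPKM (reads per length and library total; 95% counting interval 14.0 to 16.0) after Ptbp1 siRNA, 9.53 RPKM (8.67 to 10.5) after both siRNAs and 37.1 RPKM (35.5 to 38.8) after control siRNA. These levels rest on 846 reads after Ptbp1 siRNA, 453 after both siRNAs and 1974 after control siRNA. The 3 intervals did not overlap. All intervals here are exact Poisson or Clopper-Pearson intervals and cover counting error only, since PCR copies were not told apart by molecular identifiers and variation between cultures is not in them. Against the control library Txnip was 2.60-fold lower after Ptbp1 siRNA (95% interval 2.39 to 2.82) and 4.08-fold lower after both siRNAs (3.68 to 4.53). On the log2(CPM + 1) scale the differences were -1.36 for Ptbp1 siRNA and -1.99 for both siRNAs. The library with both siRNAs was also 1.57-fold lower than the Ptbp1 siRNA library (1.40 to 1.77), a difference of -0.64. Both comparisons with control siRNA use the same control library. In bulk RNA, fewer cells that express a gene and less RNA of it per cell cannot be told apart.

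**Figure D2:**
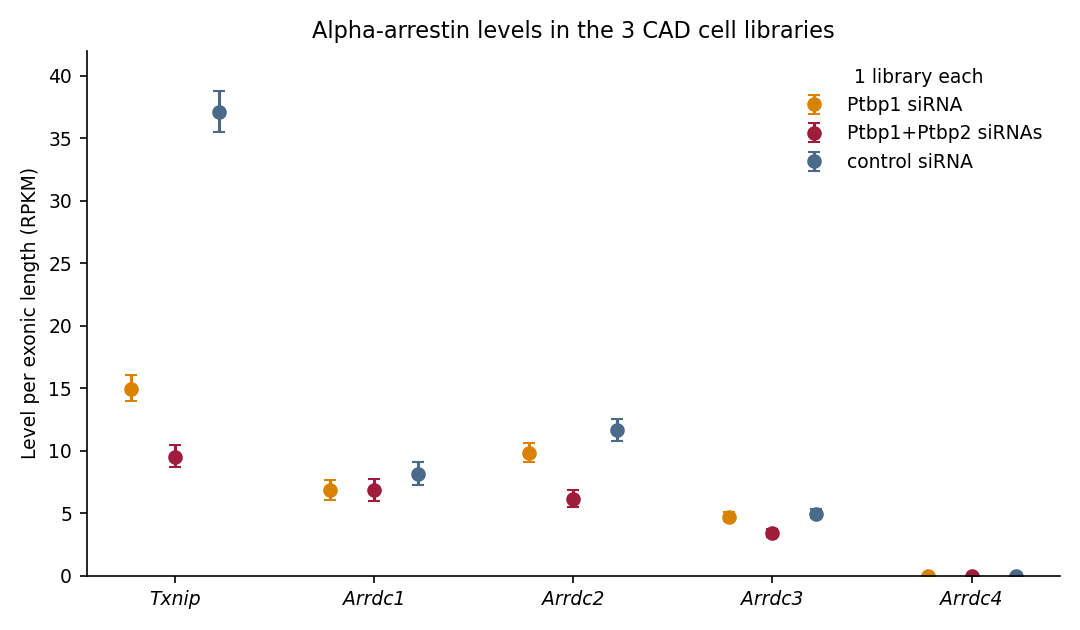
Level of each alpha-arrestin gene in the 3 libraries (y axis, RPKM, the deposited value), 1 library per group, with bars for the 95% Poisson counting interval. Txnip stands at 15.0 RPKM after Ptbp1 siRNA, 9.53 after both siRNAs and 37.1 after control siRNA, while Arrdc4 lies at the base line in all 3.

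Among all genes tested, Txnip ranked 16 of 13310 from the lowest difference for Ptbp1 siRNA minus control siRNA and 16 of 13331 for both siRNAs minus control siRNA. For both siRNAs minus Ptbp1 siRNA it ranked 361 of 13364, with 2.69% of genes below it. A gene was tested where the higher library of the pair reached 1 CPM, and called where the difference was at least 1 in size (2-fold) with a counting interval that excluded a ratio of 1. By that rule 1 member, Txnip, was called lower after Ptbp1 siRNA, against 0.458% of all genes tested, and the same 1 member after both siRNAs, against 2.73%. For both siRNAs minus Ptbp1 siRNA, 0 members were called, against 0.344% of all genes called lower. No member was called higher in any pair, where the share of all genes was 0.278% for Ptbp1 siRNA minus control siRNA, 1.07% for both siRNAs minus control siRNA and 0.105% for both siRNAs minus Ptbp1 siRNA. Since the family was chosen for Txnip, nothing is read from these counts.

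Txnip (ENSMUSG00000038393) is a compact gene of 8 exons. Its cluster spans chr3:96362322-96365789 on the plus strand of mm9 with an exonic length of 2203 bases, while the annotated gene starts earlier, at base 96361880. Its 7 introns measure 92 to 403 bases and 1100 in all. Of 6 annotated transcripts 2 are of the retained-intron class, and levels here are sums over the cluster that do not separate transcripts. A lincRNA on the opposite strand, Gm15441 (chr3:96359692-96370725), runs through the locus and shares 165 bases with the Txnip exons (96363601 to 96363765), 6.42% of the Txnip exon bases in the cluster. That share is of 2572 annotated exon bases, while the level uses the shorter exonic length of 2203 bases. The shared bases may thus already be left out of the Txnip level. The library type does not mark strand by itself, so reads in these bases could belong to either gene, and how they were counted is not given. The Gm15441 cluster held 3 reads (0.110 RPKM) after Ptbp1 siRNA, 1 read (0.0434 RPKM) after both siRNAs and 10 reads (0.388 RPKM) after control siRNA. Its read ratio to control was 0.270 after Ptbp1 siRNA (0.0477 to 1.05) and 0.107 after both siRNAs (0.00246 to 0.751). It stayed under 1 CPM in every library and was not tested.

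PTB proteins bind pyrimidine-rich RNA, often CU repeats and UCUU, ahead of exons. The last 100 bases of Txnip introns 6 (chr3:96364031-96364130) and 7 (chr3:96364302-96364401) are printed from the mm9 genome because they held CTCTCT, which is in capitals.
Txnip intron 6: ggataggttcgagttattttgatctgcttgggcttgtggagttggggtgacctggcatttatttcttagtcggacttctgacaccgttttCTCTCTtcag
Txnip intron 7: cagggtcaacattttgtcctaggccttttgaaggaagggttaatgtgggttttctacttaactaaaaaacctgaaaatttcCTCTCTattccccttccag
CTCTCT was searched on the gene's strand in the last 100 bases of introns of at least that length. It occurred in 2 of 6 Txnip intron ends and 3 of 7 Arrdc4 intron ends, against 10.8% of 172488 intron ends of 19304 genes. None of the 3 Arrdc1, 4 Arrdc2 or 7 Arrdc3 intron ends held it. TCTT occurred in 4 of 6 Txnip intron ends, against 65.1% of all ends, and over whole introns at 11.9 per kb in Txnip, against a median of 7.32 per kb over genes. The Txnip rate rests on 1008 bases in 6 introns of 105 to 403 bases, so the last 100 bases of each make up most of them. It is therefore not like for like with rates over longer introns. Arrdc1 had 8.87 TCTT per kb of intron, Arrdc4 7.19, Arrdc3 7.03 and Arrdc2 6.54. The table holds no reads over introns, so neither splicing nor binding was measured.

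Arrdc2 (ENSMUSG00000002910, chr8:73359038-73363620, minus strand) is induced by glucocorticoids in muscle. Its level was 9.84 RPKM after Ptbp1 siRNA (9.08 to 10.7, from 613 reads), 6.13 after both siRNAs (5.48 to 6.84, 321 reads) and 11.7 after control siRNA (10.8 to 12.6, 684 reads). The library with both siRNAs stood below the other libraries, with an interval that overlapped neither. Arrdc2 was 1.24-fold lower than control after Ptbp1 siRNA (1.11 to 1.39) and 1.99-fold lower after both siRNAs (1.74 to 2.28), a log2 difference of -0.96 that missed the size limit of 1. It ranked 412 of 13331 from the lowest, and 3.08% of genes lay below it. Between both siRNAs and Ptbp1 siRNA Arrdc2 was 1.61-fold lower (1.40 to 1.85), against 1.57-fold for Txnip in the same pair.

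Arrdc3 (ENSMUSG00000074794, chr13:81022684-81035304, plus strand) had the longest exonic length of the family, 6135 bases, and the lowest RPKM of the 4 measured members in every library. Its longest annotated coding transcript has 4088 bases, so this rank depends on the cluster length used. It had 4.73 RPKM after Ptbp1 siRNA (4.40 to 5.09, from 745 reads), 3.43 after both siRNAs (3.12 to 3.76, 454 reads) and 4.94 after control siRNA (4.59 to 5.31, 732 reads). The interval after Ptbp1 siRNA overlapped that of the control, and the one after both siRNAs lay below both. The ratio after Ptbp1 siRNA to control was 0.915 (0.825 to 1.02), which includes 1. After both siRNAs Arrdc3 was 1.51-fold lower than control (1.34 to 1.70) and 1.38-fold lower than after Ptbp1 siRNA (1.23 to 1.56), neither past the size limit.

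Arrdc1 (ENSMUSG00000026972, chr2:24780873-24790684, minus strand), the vesicle-budding member, had 6.82 RPKM after Ptbp1 siRNA (6.04 to 7.68, from 276 reads), 6.82 after both siRNAs (5.97 to 7.76, 232 reads) and 8.11 after control siRNA (7.23 to 9.06, 309 reads). All 3 intervals overlapped. It was 1.25-fold lower than control in each knockdown library, with intervals of 1.06 to 1.47 after Ptbp1 siRNA and 1.05 to 1.48 after both siRNAs. The ratio of both siRNAs to Ptbp1 siRNA was 0.999 (0.836 to 1.19). Arrdc4 (ENSMUSG00000042659, chr7:75881881-75894125, minus strand), the other glucose-induced member, had 1 read in each library. A limit of 3 reads corresponds to 0.177 CPM after Ptbp1 siRNA, 0.210 after both siRNAs and 0.196 after control siRNA, so Arrdc4 was not detectable at this depth and no fold is given.

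**Figure D3:**
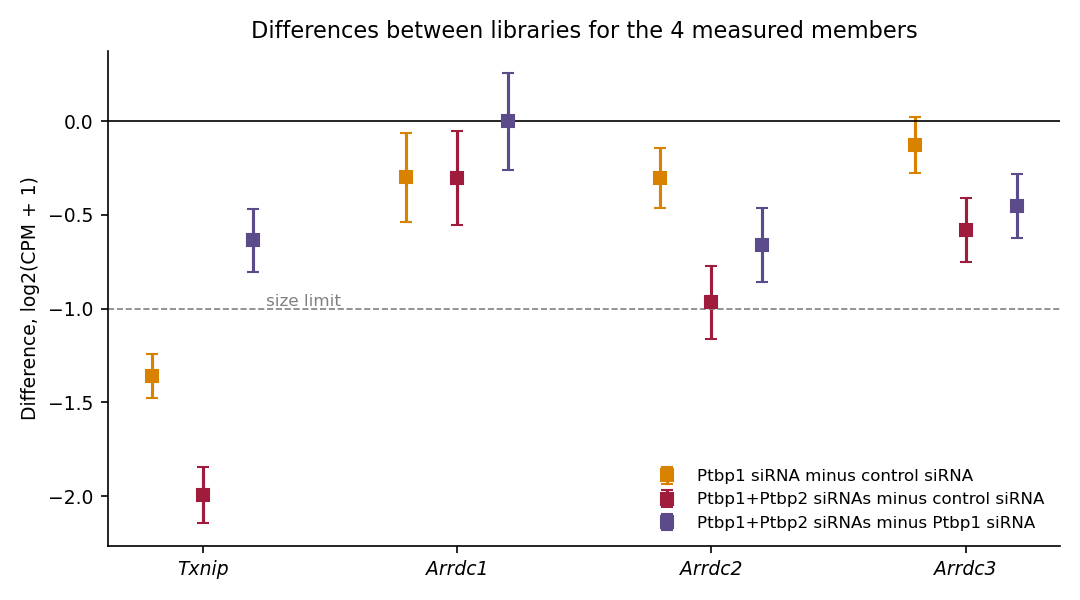
Differences between libraries for the 4 measured alpha-arrestin genes (y axis, log2(CPM + 1)), 1 library per group, with bars for the 95% interval of the read ratio. The dashed line is the size limit of -1, which Txnip passes at -1.36 and -1.99 in the comparisons with control and Arrdc2 misses at -0.96.

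In CPM, which is not per length, Arrdc3 at 31.8 and Txnip at 31.7 were level after both siRNAs. The order of the family by RPKM was Txnip, Arrdc2, Arrdc1, Arrdc3 after Ptbp1 siRNA and after control siRNA. After both siRNAs Arrdc1 stood above Arrdc2, with intervals that overlapped. The summed level of the family was 36.4 RPKM after Ptbp1 siRNA, 25.9 after both siRNAs and 61.8 after control siRNA. Txnip made up 41.2% of that sum after Ptbp1 siRNA, 36.8% after both siRNAs and 60.0% after control siRNA. Without Txnip, Arrdc1 to Arrdc3 summed to 21.4 RPKM after Ptbp1 siRNA, 16.4 after both siRNAs and 24.7 after control siRNA.

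Ratios between members within a library do not depend on how libraries are scaled. The Txnip level was 1.52 times the Arrdc2 level after Ptbp1 siRNA, 1.56 times after both siRNAs and 3.18 times after control siRNA. That ratio, set against its value after control siRNA, was 0.478 after Ptbp1 siRNA (exact conditional 95% interval 0.417 to 0.549) and 0.489 after both siRNAs (0.412 to 0.580). After both siRNAs it was 1.02 times its value after Ptbp1 siRNA (0.854 to 1.23), an interval that includes 1. The ratio of Txnip to Arrdc3 was 2.37-fold lower than control after Ptbp1 siRNA (2.08 to 2.71) and 2.70-fold lower after both siRNAs (2.31 to 3.17). Relative to Arrdc1, Txnip was 2.08-fold lower after Ptbp1 siRNA (1.73 to 2.51) and 3.27-fold lower after both siRNAs (2.67 to 4.01). That ratio was also 1.57-fold lower after both siRNAs than after Ptbp1 siRNA (1.27 to 1.94). Arrdc1 relative to Arrdc2 was 1.61 times as high after both siRNAs as after Ptbp1 siRNA (1.28 to 2.01), and 0.997 times its control value after Ptbp1 siRNA (0.816 to 1.22).

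Taking the family as a list, 4 of 5 members passed the filter on low values, all 4 with at least 1 CPM in every library. Their differences were below 0 in each pair, except that Arrdc1 for both siRNAs minus Ptbp1 siRNA was 0.003 under median-of-ratios scaling and 0.02 under quantile scaling, against -0.001 in the main scaling. The medians were -0.30 for Ptbp1 siRNA minus control siRNA, -0.77 for both siRNAs minus control siRNA and -0.54 for both siRNAs minus Ptbp1 siRNA. These signs and medians include Txnip, for which the family was chosen, so nothing is read from them. Over all genes tested the median was -0.01 in each pair, and 51.6% of genes were below 0 for Ptbp1 siRNA minus control siRNA, 51.3% for both siRNAs minus control siRNA and 50.8% for both siRNAs minus Ptbp1 siRNA. Of all genes, 61 were called lower and 37 higher after Ptbp1 siRNA, 364 lower and 142 higher after both siRNAs. With libraries scaled by their totals these were 48 lower and 50 higher after Ptbp1 siRNA, and 287 lower and 192 higher after both siRNAs.

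The genes whose pair of differences from control lay nearest to that of Txnip were Mxd4, Rcn3, Mr1, Efemp2, Dennd3 and Cald1, among 9661 genes with an established symbol and at least 100 reads in sum. Likeness was the Euclidean distance over these 2 differences from 3 libraries with a shared control, so it describes size only. Mxd4, a member of the Mad family of Max partners, was nearest at a distance of 0.0181 and had 294 reads after Ptbp1 siRNA, 157 after both siRNAs and 706 after control siRNA. It was 2.67-fold lower than control after Ptbp1 siRNA and 4.21-fold lower after both siRNAs. Rcn3, a calcium-binding protein of the endoplasmic reticulum, followed at 0.0579 with 2210 reads after Ptbp1 siRNA, 1125 after both siRNAs and 4977 after control siRNA. Mr1, an antigen-presenting molecule, Efemp2, a protein of elastic fibres, Dennd3, an exchange factor for Rab proteins, and Cald1, the actin-binding caldesmon, lay at distances of 0.105 to 0.146. The other alpha-arrestins lay farther off: 4.69% of genes were closer to Txnip than Arrdc2, 14.8% closer than Arrdc3 and 20.3% closer than Arrdc1.

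**Figure D4:**
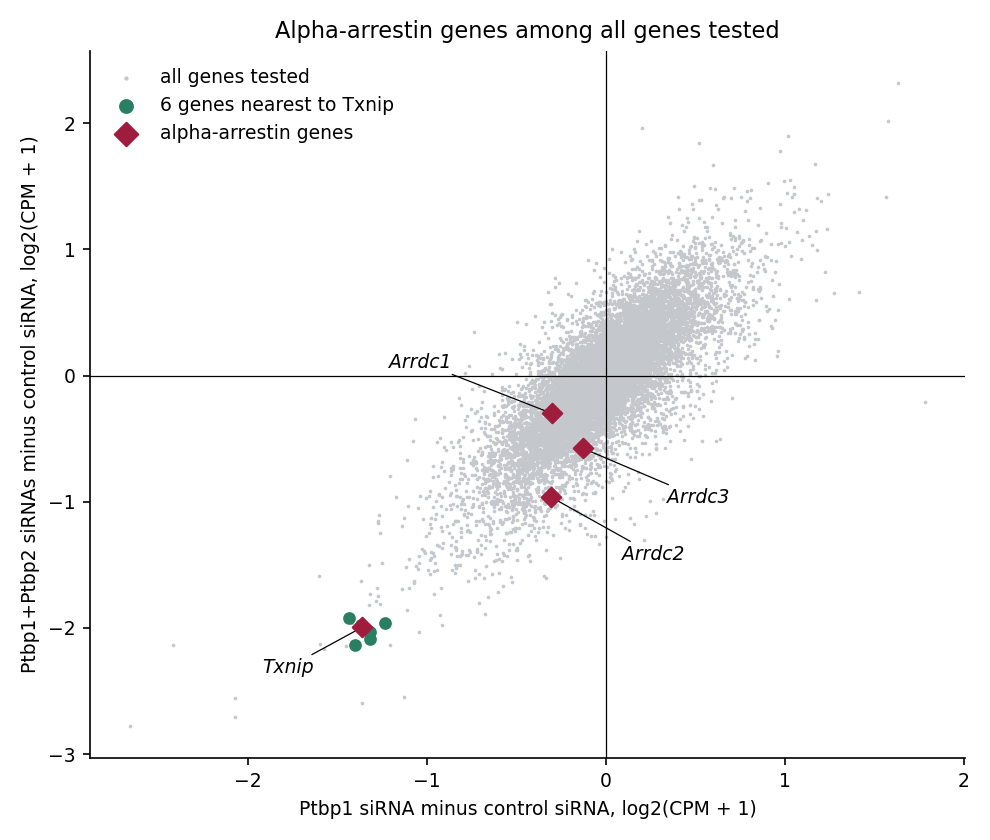
Difference of each of 13173 genes tested in both comparisons, Ptbp1 siRNA minus control siRNA (x axis) and both siRNAs minus control siRNA (y axis), on the log2(CPM + 1) scale; the axes share the control library. Txnip lies at -1.36 and -1.99 among its 6 nearest genes, while Arrdc2 lies at -0.30 and -0.96, Arrdc1 at -0.30 and -0.30 and Arrdc3 at -0.13 and -0.58.

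The genes that act around the alpha-arrestins were described as lists, with differences of both siRNAs minus control siRNA unless another pair is named. Over all genes tested in that pair 2.73% were called lower and 1.07% higher, 51.3% were below 0 and the median was -0.01. The lists were chosen with earlier results of these data known, so nothing is read from their counts beside these shares. Among the glucose-sensing factors, Mlxipl (ChREBP) was at -0.90, Mlxip (MondoA) at -0.40 and their partner Mlx at -0.03, and 0 of 3 were called. Mlxipl was low, with 38 reads after Ptbp1 siRNA, 18 after both siRNAs and 49 after control siRNA. As a plain ratio Mlxipl was 2.55-fold lower than control after both siRNAs (1.46 to 4.65), which the log2(CPM + 1) difference understates at this level. Of the other glucose-induced targets 8 of 11 were tested, 6 were below 0 and 0 were called, with a median of -0.53 after both siRNAs and -0.36 after Ptbp1 siRNA. The largest were the lipogenic enzymes Acly at -0.94 and Fasn at -0.92, followed by hexokinase 2 (Hk2) at -0.75 and ketohexokinase (Khk) at -0.61. The hexokinases and glucose 6-phosphate enzymes, which make or use the metabolite that MondoA senses, share Hk2 with that list. Of these, 7 of 9 were below 0 with a median of -0.44. A phosphoglucomutase gene on chromosome 5 that the mm9 annotation names Pgm1, and whose table aliases hold both Pgm1 and Pgm2, was called lower, at -1.69, with 366 reads after Ptbp1 siRNA, 175 after both siRNAs and 636 after control siRNA. The other phosphoglucomutase of the list, with PGM1_MOUSE as first alias, was at -0.36 and not called. It had 3101 reads after Ptbp1 siRNA, 2043 after both siRNAs and 2809 after control siRNA.

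Thioredoxin, which Txnip binds, stayed within the size limit. Its gene Txn1 had 150 CPM after Ptbp1 siRNA, 181 after both siRNAs and 162 after control siRNA. Of 14 genes of the thioredoxin system 6 were below 0 and 8 above, 0 were called, and the median was 0.04 after both siRNAs and -0.12 after Ptbp1 siRNA. The ends of the range were the peroxiredoxin Prdx5 at -0.61 and glutaredoxin (Glrx) at -0.59, against Prdx1 at 0.35 and sulfiredoxin (Srxn1) at 0.33.

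Of the membrane proteins known as alpha-arrestin cargo 6 of 7 were tested, 5 were below 0 and 3 were called lower, with a median of -0.93 after both siRNAs and -0.22 after Ptbp1 siRNA. The 3 were the glucose transporter genes Slc2a3 (GLUT3), Slc2a1 (GLUT1) and Slc2a4 (GLUT4). Slc2a1 had 187 CPM after Ptbp1 siRNA, 110 after both siRNAs and 251 after control siRNA, and was 2.29-fold lower than control after both siRNAs (2.16 to 2.43). Slc2a4 had 176 reads after Ptbp1 siRNA, 57 after both siRNAs and 152 after control siRNA. It was the 1 list member called lower for both siRNAs minus Ptbp1 siRNA, at -1.19, a pair in which 0.344% of all genes tested were called lower. The insulin receptor gene Insr was at -0.73 after both siRNAs and at -0.81 after Ptbp1 siRNA, not called.

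The ubiquitin ligases and the vesicle machinery had small differences. Of the NEDD4 family 6 of 9 genes were tested, 5 were below 0 and 0 were called, with a median of -0.19; Wwp2 at -0.31 and Itch at -0.27 were lowest. Of 8 ESCRT and vesicle release genes 3 were below 0 and 0 were called, with a median of 0.05. Tsg101, the partner of Arrdc1, was highest at 0.67, with 1410 reads after Ptbp1 siRNA, 1397 after both siRNAs and 932 after control siRNA. Of the other arrestin-fold genes 4 of 8 found were tested and 0 were called, with the beta-arrestin genes Arrb1 at -0.32 and Arrb2 at 0.35. Arrdc5, a further alpha-arrestin in that list, had 1 read after Ptbp1 siRNA, 4 after both siRNAs and 0 after control siRNA.

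The remaining lists, also chosen with earlier results of these data known, differed in their counts, and nothing is read from those. All 11 tested FoxO factors and targets were below 0 after both siRNAs and after Ptbp1 siRNA, with medians of -0.69 and -0.36. Of them 3 were called lower after both siRNAs, the cyclin gene Ccng2 at -1.40, Pik3ip1, an inhibitor of PI3-kinase, at -1.07 and Foxo3 at -1.07, and 1 after Ptbp1 siRNA, Foxo4 at -1.17. In the Ptbp1 siRNA pair 0.458% of all genes tested were called lower and 51.6% were below 0. Of 12 glucocorticoid-induced genes 7 were below 0 with a median of -0.05, and Ddit4, an inhibitor of mTORC1, was called lower at -1.30. Klf9 was at -0.62 and Cebpd at 0.58, neither called. Of the subunits of AMP-activated kinase, which phosphorylates Txnip, 5 were tested, 2 were below 0 and 0 were called, with Prkab2 at -0.88. None of 5 inflammasome genes reached 1 CPM in any library. Of the 10 CAD markers 2 were called higher, Dbh at 1.21 and Phox2a at 1.04. Of the markers of other cell types 4 were tested and Col1a1 was called lower at -1.04, with 88 reads after Ptbp1 siRNA, 48 after both siRNAs and 122 after control siRNA.

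**Figure D5:**
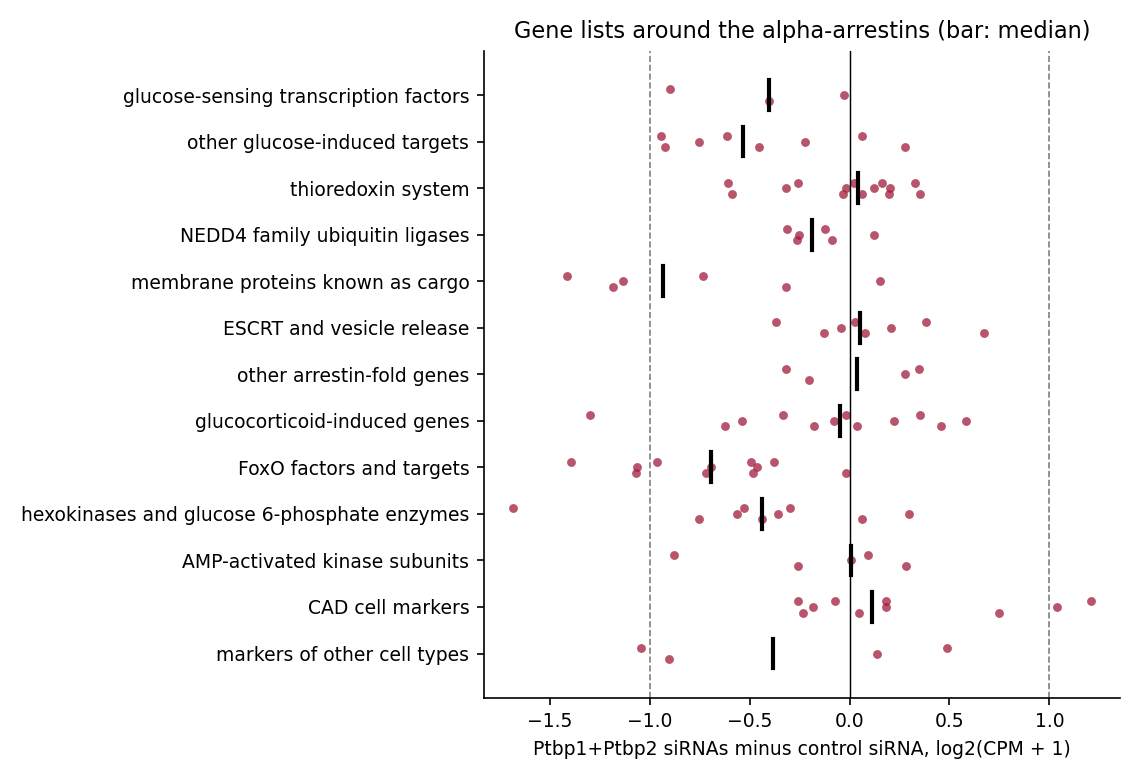
Differences of both siRNAs minus control siRNA (x axis, log2(CPM + 1)) for the tested genes of each list, 1 point per gene with a bar at the median and dashed lines at the size limits of -1 and 1. The cargo list has the lowest median, -0.93, and the FoxO list the next, -0.69, while the thioredoxin system centres on 0.04.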

How the data were processed

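Poly(A)+ RNA of 3 CAD cultures was hydrolysed, reverse transcribed from random primers, put through 15 PCR cycles and sequenced from each end (36 bases), per the labels' protocols. The authors deposited, per the file headers, a read score per gene cluster of the mm9 build (also named in the submitters' processing notes), the exonic length, and an RPKM score that divides it by length and by a library total. How reads were aligned and counted is not given in the sources used here. This read score is a net number: 38 clusters held a value below 0 and were left out, as were 127 without length. The other values were treated as counts, so intervals are approximate. The count form of the plan was kept on these net reads, without a count model, since each group has 1 library.

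Clusters were named from aliases and GENCODE positions on mm9 (16083), RefSeq aliases (256) or their first alias (10885). Rows that shared an established symbol were reduced to the highest one, leaving 26907. Scaling used trimmed means of M values (TMM, trimming 30% on M and 5% on A, with factors 1.02 for Ptbp1 siRNA, 1.01 for both siRNAs and 0.968 for control siRNA) with numpy 2.4.6, pandas 2.3.3 and scipy 1.17.1. Differences were taken after log2(CPM + 1), so those of weakly expressed genes are understated, while each fold is a plain ratio of CPM. No tests across libraries were possible with 1 library per group. The script was checked on simulated counts. Named were every family member, the targeted genes and the 6 genes nearest to Txnip. Up to 4 members of each list were named, those with the largest differences after both siRNAs. Txn1, Arrdc5, Gm15441, Col1a2, Ptprc, Chgb and Tubb3 were named after their values were seen. The members and lists were chosen with earlier results of these data known. Alternatives were pseudocounts of 0.1 and 5 CPM, no filter or 5 CPM, 3 other scalings, a size limit of 1.5-fold or 3-fold, the sum of rows with 1 symbol and the deposited RPKM score. A gene of the cargo list is not reported here.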

Additional observations from a re-analysis of the deposited data

How the results depend on the processing

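Txnip kept its direction in 27 of 27 alternative values, as did Arrdc2 and Arrdc3, while Arrdc1 kept it in 25 of 27. The filter settings are among these values but cannot change a difference, so they repeat the main value. Summing rows can change a member only through the scaling, since each member has 1 cluster. Every value lay within the counting interval of the main one. Txnip ranged between -1.37 and -1.25 after Ptbp1 siRNA minus control siRNA, between -2.02 and -1.85 after both siRNAs minus control siRNA, and between -0.65 and -0.58 for both siRNAs minus Ptbp1 siRNA. Members called changed only with the size limit: at 1.5-fold 2 were called after both siRNAs against control and 2 against Ptbp1 siRNA, and at 3-fold 0 after Ptbp1 siRNA.

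Counts over all genes moved with the pseudocount, the limit and the filter. For Ptbp1 siRNA minus control siRNA, genes called lower were 138 at a pseudocount of 0.1 CPM, 26 at 5 CPM, 461 at 1.5-fold and 7 at 3-fold, and genes called higher were 166, 4, 399 and 2, or 22 with a filter of 5 CPM. For both siRNAs minus control siRNA, genes called lower were 179 at a pseudocount of 5 CPM, 1338 at 1.5-fold and 49 at 3-fold, and genes called higher were 341 at 0.1 CPM, 45 at 5 CPM, 968 at 1.5-fold and 9 at 3-fold. For both siRNAs minus Ptbp1 siRNA, genes called lower were 169 at 0.1 CPM, 9 at 5 CPM, 478 at 1.5-fold and 1 at 3-fold, and genes called higher were 87, 1, 246 and 1, or 6 with a filter of 5 CPM. Arrdc4, with 1 read per library, gave no value under the 5 CPM filter.

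No paired analysis was possible because each group has 1 library. Leaving out a library was not possible for the same reason. Depth limits Arrdc4 and Gm15441.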
